A study of Mus musculus with 44 samples.

Results

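Advanced steatohepatitis was reached on 2 diets in this mouse study, and the comparison described here asks where hepatocyte nuclei changed differently on the way there. For every gene, the log2 change from control to advanced disease under the FPC diet was subtracted from the same change under the CDAHFD. All 13808 genes with enough counts entered, and the comparison used 14 of the 44 libraries, those of tagged hepatocyte nuclei from control and advanced livers. The mice were males of the HEP-INTACT line, in which a tag on hepatocyte nuclei allows their pull-down from a liver homogenate. The labels used here name neither the promoter behind the tag nor the age of the mice. The first study arm held 4 controls on a low-fat diet for 20 weeks and 3 mice with advanced disease after 20 weeks of the FPC diet. The second arm held 4 controls on a low-fat diet for 7 weeks and 3 mice with advanced disease after 7 weeks of the CDAHFD. Advanced disease was assigned from liver histology after feeding, so it was not randomised. Diet, weeks on the diet and study arm coincide, and their effects cannot be told apart. Between the 2 low-fat control groups, weeks and study arm coincide in the same way.

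The FPC diet combines fructose, palmitate and cholesterol. The CDAHFD is a high-fat diet with defined amino acids that is deficient in choline, the nutrient from which hepatocytes build the phosphatidylcholine of secreted lipoproteins. Hepatocytes make fatty acids mainly under the transcription factors SREBP1c, ChREBP and LXR, and cholesterol under SREBP2, which is held back when cell sterol is high. In injured livers hepatocytes also come to carry transcripts of bile duct epithelium and of fetal liver. Nuclear RNA is rich in unspliced transcripts. By the counted lengths that the authors list, reads in introns appear to have been counted here with exons.

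The 14 libraries held 12.1 to 30.6 M counts, with the lowest totals in the CDAHFD advanced group (12.1 to 21.9 M). Levels are CPM, counts scaled to a common library total with trimmed-mean (TMM) factors. Mice of a group are lettered a to d in the order of their label numbers, and values of a group are given in that order. The tag was checked against hepatocyte markers, whose 23 genes summed to 21882 to 36545 CPM in FPC controls, 12473 to 15340 CPM in FPC advanced nuclei, 21616 to 32346 CPM in CDAHFD controls and 14665 to 19500 CPM in CDAHFD advanced nuclei, so that both advanced groups lay below every control. Ass1, an abundant urea cycle enzyme of hepatocytes, was nearly absent in this count table (0 to 64 counts a group), and its row is not read here. Cholangiocyte markers, genes of bile duct cells, summed to 3880 to 5660 CPM in FPC advanced nuclei and to 1362 to 1886 CPM in CDAHFD advanced nuclei, against 433 to 624 CPM in both sets of controls. Mesothelial markers summed to 208 to 231 CPM and 41.2 to 53.8 CPM in the same advanced groups. Nearly all of this sum was the single gene Gpm6a (204 to 229 CPM and 40.5 to 53.3 CPM). Lymphocyte markers summed to 111 to 261 CPM and 141 to 162 CPM in the FPC and CDAHFD advanced groups, against 15.8 to 60.8 CPM and 9.3 to 20.3 CPM in their controls. Kupffer cell markers, of the resident macrophages, summed to 99.6 to 188 CPM in FPC controls and 43.8 to 105 CPM in CDAHFD controls. In FPC and CDAHFD advanced nuclei they summed to 114 to 144 CPM and 116 to 145 CPM. In such bulk nuclei, fewer cells of a type and less RNA per cell cannot be told apart. In CDAHFD control mice a and b hepatocyte and whole liver nuclei went against their shared labels: the deviations from the group mean correlated at -0.19 and -0.26 with the own partner, and at 0.81 and 0.71 with the other mouse's. Both are controls of 1 group, so group means within a fraction do not depend on which is which.

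A positive difference below means that the change was more positive under the CDAHFD. In edgeR's quasi-likelihood test with Benjamini-Hochberg adjustment, the difference was called (adjusted p under 0.05) positive for 622 genes, 4.5% of those tested, and negative for 1016 genes, 7.36%. Of these, 324 (2.35%) and 534 (3.87%) differed by at least 2-fold. The median over all genes was -0.04. The 4.5% and 7.36% are the shares against which counts in the gene lists below stand. Each diet on its own moved many more genes: the CDAHFD raised 4498 (32.6%) and lowered 3759 (27.2%), and the FPC diet raised 3735 (27.0%) and lowered 2924 (21.2%). Among the 622 positive differences, 313 genes rose only under the CDAHFD and 148 fell only under the FPC diet. Another 79 rose under both diets, 34 fell under both, and 45 rose under the CDAHFD and fell under the FPC diet. Among the 1016 negative differences, 426 fell only under the CDAHFD, 173 rose only under the FPC diet, 180 rose under both, 178 fell under both and 56 fell under the CDAHFD and rose under the FPC diet.

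**Figure D1:**
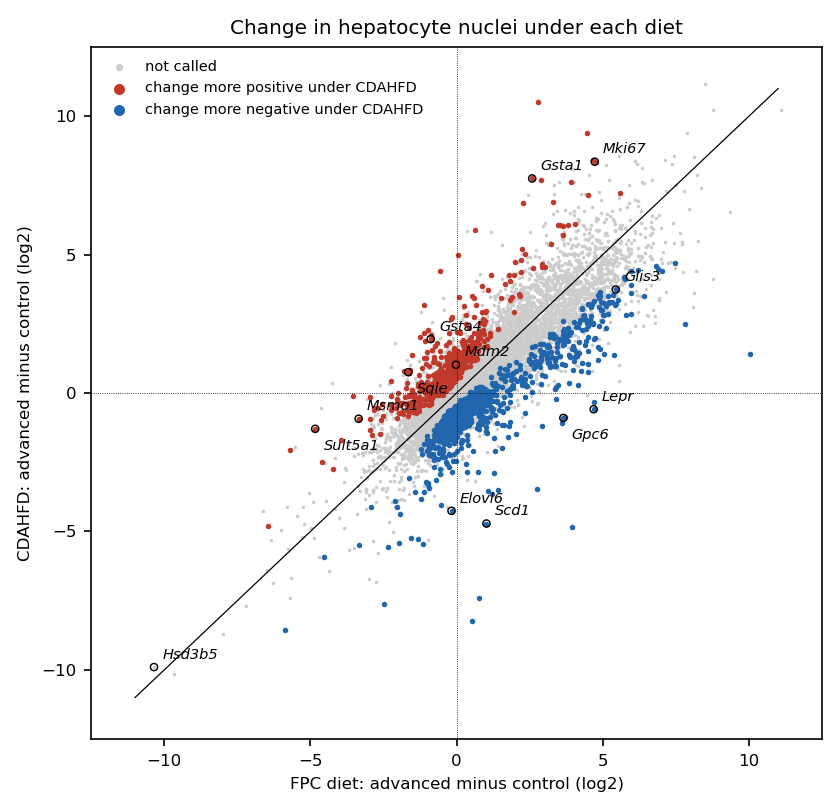
Change from control to advanced disease for each gene (log2, 4 controls and 3 advanced mice per diet), FPC diet on the x axis and CDAHFD on the y axis, with called genes coloured and equal change on the diagonal. Scd1 and Elovl6 lie far below the diagonal, Gsta1 and Mki67 above it, and Hsd3b5 on it at the lower left.

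The difference has 2 ends: the advanced groups can differ between diets, or the controls can. Between the advanced groups, 2188 genes were higher under the CDAHFD (15.8%) and 2779 lower (20.1%). Between the controls, 171 were higher in the CDAHFD arm (1.24%) and 354 lower (2.56%). Of the 622 positive differences, 501 were also called between the advanced groups in the same direction, while 75 were called only between the controls, lower in the CDAHFD arm. Of the 1016 negative differences, 933 were called between the advanced groups and 24 only between the controls. The 2 lipid synthesis pathways fell on opposite sides of this divide, as described next.

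Of the 23 measured genes of fatty acid and triglyceride synthesis, 16 fell and 2 rose under the CDAHFD, against 6 and 3 under the FPC diet. In the comparison of the 2 changes 8 had a negative difference and 1 a positive one, with a median of -1.07. Scd1, the delta-9 desaturase that makes oleate, stood at 304, 251, 197 and 430 CPM in FPC controls and at 816, 269 and 715 CPM in FPC advanced nuclei. In the CDAHFD arm Scd1 stood at 152, 66.2, 111 and 276 CPM in controls and at 2.34, 11.4 and 3.68 CPM in advanced nuclei. The CDAHFD advanced libraries all lay below every other library, while the 2 FPC groups overlapped. The Scd1 difference was -5.74 ± 0.75 (log2 ± SE), with an edgeR adjusted p of 0.00029. The gene lies on chr19:44394450-44407709 of mm10, minus strand.

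Elovl6, which lengthens palmitate to stearate, followed the same pattern. Its CDAHFD controls held 629, 1021, 602 and 1281 CPM and the CDAHFD advanced nuclei 38.6, 38.4 and 61.5 CPM, against 348 to 587 CPM in FPC controls and 734, 156 and 465 CPM in FPC advanced nuclei. The Elovl6 difference was -4.08 ± 0.82 (edgeR adjusted p = 0.005). Pnpla3, a lipid droplet protein with lipase activity, rose under the FPC diet to 72.1, 9.65 and 87.7 CPM from 2.66 to 18.3 CPM, and fell under the CDAHFD to 1.27, 2.06 and 1.44 CPM from 5.62 to 41.8 CPM. Acaca, the acetyl-CoA carboxylase that commits carbon to fatty acids, fell from 854 to 2663 CPM to 217 to 300 CPM under the CDAHFD and stood at 871 to 1094 CPM and 448 to 1011 CPM in the FPC groups (difference -2.23 ± 0.43, adjusted p = 0.0039). FPC advanced mouse b had the lowest Scd1, Elovl6, Pnpla3 and Acaca of its group. The other genes with a negative difference were Me1, Elovl5, Scd2 and Thrsp, and the positive one was Slc25a1, the mitochondrial citrate carrier. Thrsp, a lipogenesis-associated nuclear protein, differed by -5.14 ± 1.49 (adjusted p = 0.032), a call lost when any of 6 libraries was left out, the 3 CDAHFD advanced mice, CDAHFD control mouse d or FPC advanced mice a or c (adjusted p up to 0.0915), with the 14 libraries alone (0.0525) and by limma-voom (0.26).

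All 9 called genes of this list also differed between the advanced groups in the same direction, and none of them between the controls in the opposite one. Not every lipogenic gene reached the threshold. Fasn, the fatty acid synthase, fell under both diets and differed by -1.58 ± 0.66 (adjusted p = 0.12, or 0.0382 without FPC advanced mouse b). Srebf1, which encodes SREBP1, differed by -0.99 ± 0.53 (adjusted p = 0.22, or 0.0479 without CDAHFD control mouse a). Of 20 genes of fructose and glucose sensing, edgeR called none, with 5 at an unadjusted p under 0.05, 1 called lower by DESeq2 and none by limma-voom. Khk, the ketohexokinase that phosphorylates fructose, came closest among the genes chosen by name (-1.45 ± 0.49, adjusted p = 0.058, and 0.019 to 0.0437 in the 4 settings that called it).

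Cholesterol synthesis showed the reverse sign, and its difference lay in the controls. Of the 22 measured enzymes, 9 had a positive difference and none a negative one, with a median of 0.98. Among the 9 were Mvd, Msmo1, Lss, Idi1, Sqle, Fdft1 and Hmgcs1. By the same test 21 of the 22 fell under the FPC diet and 11 under the CDAHFD. Yet none of the 9 differed between the advanced groups, and all 9 were lower in CDAHFD controls than in FPC controls, as were 15 of the 22 enzymes.

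Msmo1, a sterol methyl oxidase, showed 121, 137, 225 and 203 CPM in FPC controls, 21, 9.96 and 19.4 CPM in FPC advanced nuclei, 45.9, 55.9, 43.2 and 13.6 CPM in CDAHFD controls and 19.5, 25.3 and 17.9 CPM in CDAHFD advanced nuclei. Msmo1 fell under both diets, from a higher start under the FPC diet, and all FPC controls lay above every other library. The Msmo1 difference was 2.42 ± 0.49 (edgeR adjusted p = 0.005), with 0.31 between the advanced groups (adjusted p = 0.54) and -2.11 between the controls (adjusted p = 0.00056). Mvd, the mevalonate diphosphate decarboxylase, went from 12.2 to 18.1 CPM to 2.19 to 5.56 CPM under the FPC diet, and stood at 2.61 to 6.69 CPM and 3.61 to 5.13 CPM in the CDAHFD groups (difference 2.11 ± 0.43, adjusted p = 0.0049). Sqle, the squalene epoxidase, stood at 25.9, 31.5, 57.1 and 60.3 CPM in FPC controls and fell to 15.8, 8.98 and 16.9 CPM. In the CDAHFD arm Sqle stood at 19.8, 12.1, 7.56 and 6.6 CPM in controls and at 20, 27.3 and 11.5 CPM in advanced nuclei, which overlapped. The Sqle difference was 2.40 ± 0.56 (adjusted p = 0.01).

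**Figure D2:**
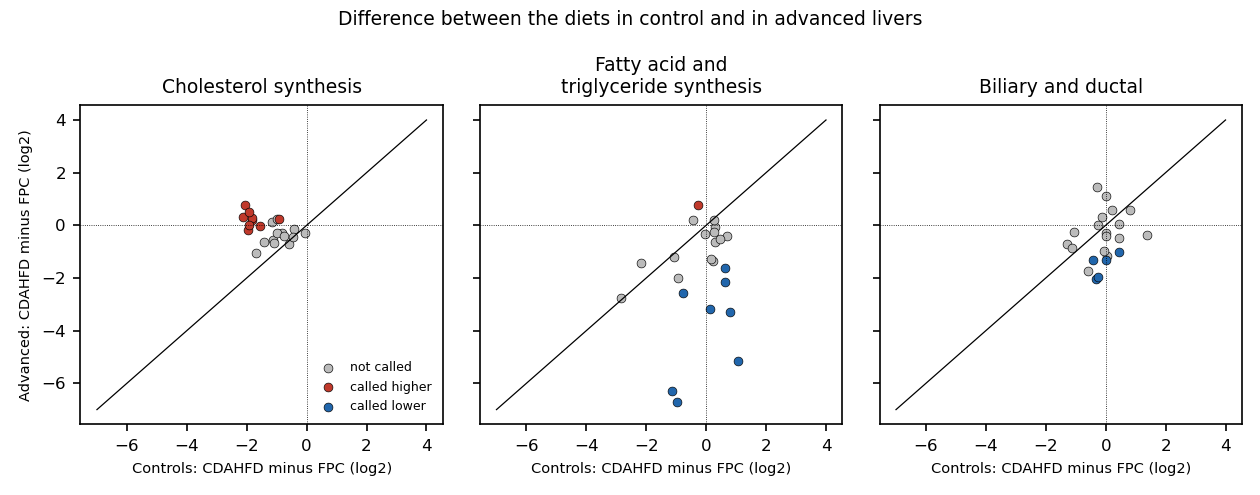
Difference between the diets (CDAHFD minus FPC, log2) among controls on the x axis and among advanced livers on the y axis, each point 1 gene of the list, with genes whose change differed coloured and equal differences on the diagonal. The called cholesterol synthesis genes lie left of 0 and near 0 in height, and the fatty acid and biliary genes called lower lie below 0 in height.

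Because these enzymes moved together, their promoters are shown for 3 of the 9, chosen for the motifs below: Hmgcs1, the cytosolic HMG-CoA synthase, with Msmo1 and Mvd. Each line gives the 250 bases before the RefSeq start (GRCm38.p6), 5′ to 3′ on the gene's strand, with the letters CCAAT (or ATTGG on the other strand) and the sterol response element core TCACNCCAC in capitals. Hmgcs1 is at chr13:119690101-119690350, plus strand, Msmo1 at chr8:64733579-64733828, minus strand, and Mvd at chr8:122443423-122443672, minus strand.
Hmgcs1: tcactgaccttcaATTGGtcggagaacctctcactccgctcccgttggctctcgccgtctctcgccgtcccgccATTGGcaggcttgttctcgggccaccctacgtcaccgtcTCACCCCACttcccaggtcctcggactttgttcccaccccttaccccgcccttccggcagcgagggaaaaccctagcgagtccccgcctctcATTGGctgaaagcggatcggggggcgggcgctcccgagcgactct
Msmo1: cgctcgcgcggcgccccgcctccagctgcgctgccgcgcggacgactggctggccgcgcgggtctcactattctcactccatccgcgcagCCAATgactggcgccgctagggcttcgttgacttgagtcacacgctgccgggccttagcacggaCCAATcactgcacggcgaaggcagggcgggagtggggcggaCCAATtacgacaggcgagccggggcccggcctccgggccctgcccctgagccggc
Mvd: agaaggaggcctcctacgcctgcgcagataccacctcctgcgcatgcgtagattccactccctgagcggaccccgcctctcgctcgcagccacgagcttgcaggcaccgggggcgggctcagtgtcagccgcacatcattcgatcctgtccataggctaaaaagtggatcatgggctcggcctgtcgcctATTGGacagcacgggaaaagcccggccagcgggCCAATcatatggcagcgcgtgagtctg
The letters CCAAT occur 3 times in the Hmgcs1 and Msmo1 windows and 2 times in the Mvd window, counting both strands. Promoters were at hand for 17 of the cholesterol synthesis genes, in 20 windows, and 16 windows of 16 genes held CCAAT (80.0%), against 33.8% of all 32851 windows of that length. The sterol core occurred in 1 of the 20 windows, that of Hmgcs1 (as TCACCCCAC), and in 1.05% of all windows. For fatty acid synthesis, 12 of 24 windows held CCAAT (50.0%) and none the sterol core.

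Sterol export also separated the diets, and here the advanced groups differed. Among 13 genes of oxysterol response and cholesterol efflux, 3 had a negative difference and none a positive one, with a median of 0.05. Abcg5, one partner of the transporter that moves cholesterol into bile, stood at 266, 350, 339 and 338 CPM in FPC controls and at 518, 252 and 488 CPM in FPC advanced nuclei. In the CDAHFD arm it fell from 169, 375, 275 and 670 CPM to 80.1, 106 and 118 CPM, below every other library. The Abcg5 difference was -2.25 ± 0.55 (edgeR adjusted p = 0.014), that of its partner Abcg8 was -1.71 ± 0.42 (adjusted p = 0.015), and that of Abca1, which loads cholesterol onto high-density lipoprotein, was -1.07 ± 0.21 (adjusted p = 0.0041). Abcg5 (chr17:84658234-84682923, minus strand) and Abcg8 (chr17:84676302-84700333, plus strand) overlap. Reads in the overlap cannot be assigned with certainty, so these 2 calls may not be separate results.

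Lipid droplet and uptake genes did not move as a block: of 26, 3 had a positive difference (Lipe, Cd36 and Pnpla2) and 2 a negative one (Lpl and Mgll), with a median of 0.05. Cd36, a fatty acid translocase, rose under both diets and reached 90.7, 43.1 and 65.1 CPM under the CDAHFD and 125, 78.9 and 110 CPM under the FPC diet. Its controls were 2.25 to 6.37 CPM in the CDAHFD arm and 9.06 to 45 CPM in the FPC arm. The Cd36 difference was 2.27 ± 0.70 (adjusted p = 0.041), lost without any of 10 libraries (adjusted p up to 0.0949 among these), namely CDAHFD advanced a and c, CDAHFD control b, c and d, the 3 FPC advanced and FPC control a and b. It was also lost with the 14 libraries alone (adjusted p = 0.0984), by limma-voom (0.101) and with no filter (0.0633). Lipe, the hormone-sensitive lipase, fell under the FPC diet from 37.3 to 59.6 CPM to 18.2 to 24.8 CPM and stood at 20.1 to 40.8 CPM and 29 to 36.6 CPM in the CDAHFD groups (difference 1.34 ± 0.28, adjusted p = 0.0056). Lpl, the lipoprotein lipase, rose under both diets, to 25.8 to 36.9 CPM under the FPC diet and to 12.1 to 14.2 CPM under the CDAHFD (difference -1.95 ± 0.50, adjusted p = 0.017). Lpl is also a marker of recruited macrophages, whose 14 markers summed to 135 to 157 CPM in FPC advanced and 113 to 140 CPM in CDAHFD advanced nuclei, and their part in the result was not tested. Plin2 and Cidec, droplet coat proteins, differed by 0.39 ± 0.48 (adjusted p = 0.63) and 1.19 ± 0.68 (adjusted p = 0.26, or 0.0423 without CDAHFD control mouse a).

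Genes of choline, phospholipid and methyl metabolism, the pathway into which dietary choline feeds, had nearly the same median change under both diets (-0.88 under the CDAHFD and -0.93 under the FPC diet). Of 35 genes, 3 had a positive and 3 a negative difference, with a median of 0.01. Slc44a1, a choline transporter, stood at 90.7 to 152 CPM and 113 to 176 CPM in FPC controls and FPC advanced nuclei. In the CDAHFD arm Slc44a1 fell from 75.3, 106, 123 and 135 CPM to 37, 46.2 and 55.5 CPM, with no overlap (difference -1.44 ± 0.29, adjusted p = 0.0042). Etnk1, an ethanolamine kinase, differed by -0.71 ± 0.14 (adjusted p = 0.0047), and Cept1 was the third negative gene. Aldh7a1, which among other reactions oxidises betaine aldehyde, fell under both diets and differed by 0.93 ± 0.20 (adjusted p = 0.0078). Its difference lay in the controls, with 0.03 between the advanced groups (edgeR adjusted p = 0.89) and -0.89 between the controls (0.00037). Pcyt2 and Ahcy were the other positive genes. Pemt, which makes phosphatidylcholine by methylation, fell under both diets and differed by -0.08 ± 0.38 (adjusted p = 0.91). Gnmt, the glycine methyltransferase, fell to 22.5 to 63 CPM under the FPC diet and 31.6 to 58.6 CPM under the CDAHFD (difference 0.33 ± 0.47, adjusted p = 0.68). Mttp, which loads lipid onto apolipoprotein B, differed by -0.68 ± 0.27 (adjusted p = 0.11, or 0.0332 without FPC advanced mouse b). Apob was the one called gene of 17 in lipoprotein assembly.

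The calls among detoxification genes were all positive. Of 27 conjugation enzymes, 5 had a positive difference (Gsta1, Gsta2, Gsta4, Sult5a1 and Sult2a8) and none a negative one, with a median of 0.67. Of 25 xenobiotic cytochromes P450, 4 were positive (Cyp2a5, Cyp3a11, Cyp2c50 and Cyp3a13) and none negative, with a median of 1.08. In 3 of those 5 and 3 of those 4 the controls were lower in the CDAHFD arm by the test and the advanced groups did not pass it. Gsta4, a glutathione transferase for lipid aldehydes, fell under the FPC diet from 15.1, 14, 13.7 and 12.4 CPM to 5.58, 8.04 and 8.87 CPM. Under the CDAHFD it rose from 1.09, 1.86, 3 and 2.56 CPM to 4.8, 11.9 and 7.79 CPM. Neither diet's groups overlapped, and the 2 advanced groups did. The Gsta4 difference was 2.84 ± 0.39 (edgeR adjusted p = 0.00032), with 0.13 between the advanced groups (adjusted p = 0.76) and -2.71 between the controls (adjusted p = 4.3e-06). Reads of closely related copies may have been divided between them, so the values of Gsta4 and of Gsta1, Gsta2 and Gm10639 (differences 5.16 ± 0.79, 4.29 ± 0.80 and 4.93 ± 0.74) are uncertain. The same holds for Cyp2a5, Cyp3a11, Ces2c, Gstt2, Hsd3b5 and Scd1, which also have close relatives.

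Cyp2a5, a coumarin hydroxylase, stood at 90.9 to 228 CPM in FPC controls against 21.5 to 52.2 CPM in CDAHFD controls, and at 43.3 to 124 and 92.8 to 247 CPM in the matching advanced nuclei (difference 2.96 ± 0.53, adjusted p = 0.0025). Cyp3a11, a major drug-metabolising enzyme, stood at 355 to 1636 CPM in FPC controls against 8.5 to 91.9 CPM in CDAHFD controls, the largest gap between controls among the genes of this paragraph. Its difference was 3.28 ± 0.91 (adjusted p = 0.027), lost without CDAHFD advanced mouse a, FPC control mouse d or any of the 3 FPC advanced mice (adjusted p up to 0.0739) and with the 14 libraries alone (0.064). Abcc3, a basolateral exporter of conjugates and bile acids, rose under the CDAHFD from 52.7 to 112 CPM to 236 to 302 CPM and stood at 200 to 500 and 251 to 337 CPM in the FPC groups (difference 2.10 ± 0.43, adjusted p = 0.0052). Sult5a1, a sulfotransferase, did not follow this pattern. Its controls overlapped at 52.9 to 208 CPM, and the FPC diet lowered it to 3.73 to 5.67 CPM against 33.4 to 55.9 CPM under the CDAHFD (difference 3.54 ± 0.52, adjusted p = 0.00055). Hmox1, the haem oxygenase, rose under both diets, to 2.77 to 8.62 CPM and, under the CDAHFD, to 11.4 to 23.6 CPM (difference 2.04 ± 0.49, adjusted p = 0.012).

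**Figure D3:**
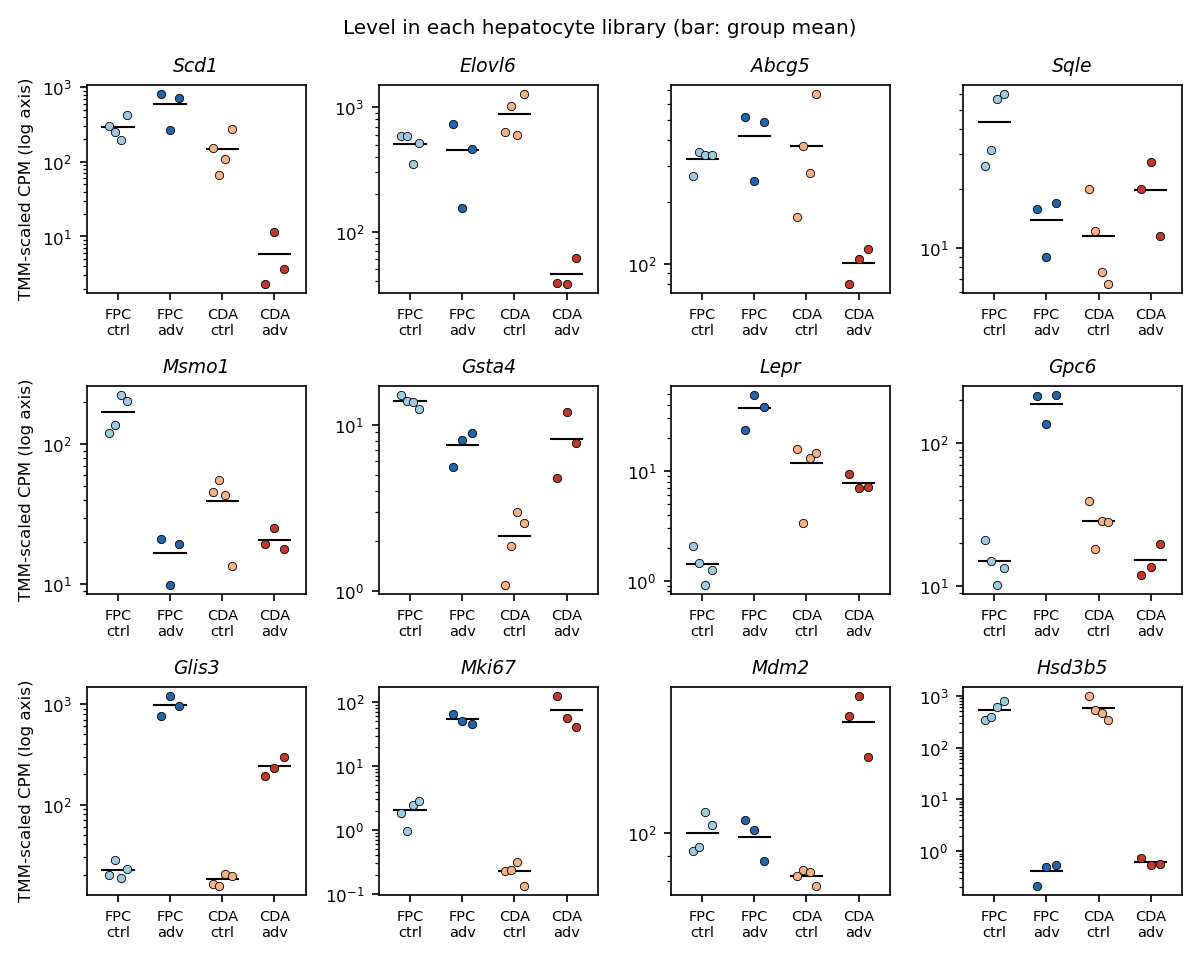
Level of 12 genes in each hepatocyte library (TMM-scaled CPM on log axes, points 1 mouse each, bars the group mean; ctrl, control; adv, advanced; CDA, CDAHFD). Scd1, Elovl6 and Abcg5 are low only in CDAHFD advanced nuclei, Msmo1 is highest in FPC controls, and Lepr and Gpc6 are highest in FPC advanced nuclei.

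The smallest p-value of all belonged to Gpc6, a cell-surface heparan sulfate proteoglycan. It stood at 21.2, 15.1, 10.3 and 13.5 CPM in FPC controls and at 215, 136 and 217 CPM in FPC advanced nuclei. In the CDAHFD arm it stood at 39.3, 18.4, 28.6 and 28 CPM in controls and at 12.1, 13.6 and 19.9 CPM in advanced nuclei. FPC advanced nuclei alone were high, and the difference was -4.55 ± 0.40 (edgeR adjusted p = 2.2e-06). Lepr, the leptin receptor, rose under the FPC diet from 2.06, 1.46, 0.925 and 1.25 CPM to 23.6, 49.1 and 38.3 CPM. Under the CDAHFD it stood at 16, 3.34, 13.1 and 14.6 CPM in controls and at 9.41, 6.99 and 7.06 CPM in advanced nuclei, which overlapped. The Lepr difference was -5.28 ± 0.59 (adjusted p = 5.1e-05), and the controls differed too (3.03 higher in the CDAHFD arm, adjusted p = 0.00014). Eva1c, a membrane protein that binds the guidance cue SLIT, rose from 1.11 to 1.47 CPM to 10.8 to 19 CPM under the FPC diet and stood at 1.87 to 17 and 1.6 to 4.33 CPM in the CDAHFD groups (difference -4.71 ± 0.80, adjusted p = 0.0017).

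Of 22 bile duct genes, 19 rose under the FPC diet and 18 under the CDAHFD, and none fell. The difference was negative for 5 and positive for none, with a median of -0.40. Glis3, a zinc finger factor of duct cells, went from 18.6 to 28.1 CPM to 753, 1205 and 964 CPM under the FPC diet and from 15.6 to 20.6 CPM to 192, 231 and 296 CPM under the CDAHFD. Its difference was -1.71 ± 0.38 (adjusted p = 0.0083). Bicc1, an RNA-binding protein of epithelial tubes, reached 610, 935 and 823 CPM under the FPC diet and 153, 205 and 254 CPM under the CDAHFD (difference -1.68 ± 0.41, adjusted p = 0.013). Jag1, a Notch ligand, differed by -1.44 ± 0.29 (adjusted p = 0.0042). Pkhd1, the fibrocystin of duct cilia, was also among the 5. Glis3, Bicc1 and Pkhd1 are also on the list of 15 cholangiocyte markers, whose summed level was higher in every FPC advanced library than in any CDAHFD advanced library, and the part of such cells in the result was not tested. Spp1 (osteopontin) and Elf3, other duct-associated genes, differed by -0.92 ± 0.51 (adjusted p = 0.24) and 0.61 ± 0.84 (adjusted p = 0.67).

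Fetal and growth-related genes were mixed. Of 23 fetal and progenitor genes, 2 had a positive difference (Peg3 and Anxa1) and 3 a negative one. Igf2bp2, which binds messenger RNA of growth factors, rose under the FPC diet from 2.66 to 5.73 CPM to 18.7, 6.26 and 7.89 CPM and fell under the CDAHFD from 5.57 to 13.8 CPM to 2.47, 2.53 and 2.01 CPM (difference -3.42 ± 0.52, adjusted p = 0.00058). Gpc3, a fetal proteoglycan related to Gpc6, rose to 3.18 to 4.91 CPM under the FPC diet and to 0.334 to 0.865 CPM under the CDAHFD (difference -2.86 ± 0.62, adjusted p = 0.0073), and Igf2bp3 was the third. Of 22 genes on the list of YAP, TEAD and their targets, 4 were negative and Birc5 positive. The 4 were Tgfb2, Asap1 and the regulators Tead1 and Yap1 themselves. Tgfb2, a secreted growth factor of the TGF-beta family, reached 31.9 to 63.6 CPM under the FPC diet and 14.5 to 19 CPM under the CDAHFD (difference -1.99 ± 0.44, adjusted p = 0.0082). Of 40 collagen and matrix genes, 36 rose under the FPC diet and 30 under the CDAHFD. The difference was called for 3, all negative (Bgn, Timp2 and Lama2), near the 7.36% negative among all genes tested. Bgn, a small matrix proteoglycan, differed by -1.67 ± 0.46 (adjusted p = 0.024, or 0.0568 without CDAHFD advanced mouse a). Col1a1, the main fibrillar collagen chain, reached 4.78 to 6.28 CPM and 4.67 to 6.65 CPM (difference -0.68 ± 0.45, adjusted p = 0.33). Stellate cell and fibroblast markers summed to 161 to 224 CPM and 178 to 226 CPM in these 2 advanced groups. Gpm6a, on the mesothelial list, reached 208, 229 and 204 CPM under the FPC diet and 40.5, 53.3 and 48.4 CPM under the CDAHFD (difference -1.50 ± 0.36, adjusted p = 0.013). Most of the summed level of that list was Gpm6a.

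Cell cycle genes differed in the positive direction for 6 of 39 (Mki67, Mcm10, Birc5, E2f1, Prc1 and Cdc25c), with a median of 0.68. Under the FPC diet 31 of the 39 rose and 1 fell, and under the CDAHFD 33 rose and 1 fell. Of the 6, 3 were called only between the controls, lower in the CDAHFD arm, and 1 only between the advanced groups. Mki67, a marker of dividing cells, rose under both diets to levels that overlapped: 66.6, 51.6 and 44.9 CPM under the FPC diet and 125, 57.3 and 41.2 CPM under the CDAHFD. Its controls did not overlap, at 1.83, 0.953, 2.5 and 2.88 CPM in the FPC arm and 0.227, 0.233, 0.312 and 0.135 CPM in the CDAHFD arm. The Mki67 difference was 3.63 ± 0.68 (edgeR adjusted p = 0.0033, or 0.0683 by limma-voom). Mcm10, a replication factor, was the 1 gene of the list that fell under each diet, and it differed through the advanced groups. Under the FPC diet it fell from 66.8 to 79.2 CPM to 14.4 to 17.4 CPM. Under the CDAHFD it fell from 45.3 to 79 CPM to 35.2 to 48.1 CPM (difference 1.68 ± 0.28, adjusted p = 0.0014). Birc5, survivin, differed by 2.10 ± 0.49 (adjusted p = 0.011). It showed 0.23 between the advanced groups (adjusted p = 0.65) and -1.88 between the controls (adjusted p = 0.0022). Mdm2, the ubiquitin ligase induced by p53, rose under the CDAHFD from 82, 84.4, 83.5 and 78.5 CPM to 171, 188 and 142 CPM. In the FPC arm Mdm2 stood at 92.1 to 110 CPM and 87.9 to 106 CPM (difference 1.04 ± 0.18, adjusted p = 0.0019). It was the one call among 21 p53 targets and senescence inhibitors, near the 4.5% positive among all genes tested. Cdkn1a, the cell cycle inhibitor p21, differed by -0.99 ± 0.63 (adjusted p = 0.31).

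Of 26 ATF4 and amino acid response genes, 10 rose under the FPC diet and 17 under the CDAHFD, and 3 were positive (Atf4, Aars and Cebpb) and Psph negative, with a median of 0.68. Atf4, the transcription factor of the integrated stress response, fell under the FPC diet from 40 to 63.2 CPM to 23.1 to 29.3 CPM and stood at 35.3 to 48.6 and 39.6 to 65.9 CPM in the CDAHFD groups (difference 1.20 ± 0.28, adjusted p = 0.01). Aars, the alanyl-tRNA synthetase, differed by 1.08 ± 0.23 (adjusted p = 0.0064). Fgf21, a stress hormone of the liver, reached 4.64 to 17.4 and 17.3 to 43.3 CPM and differed by -1.26 ± 1.06 (adjusted p = 0.45). Of 40 interferon response and antigen presentation genes, 2 were positive, H2-K1 and Irf1, near the 4.5% positive among all genes tested. H2-K1, a class I antigen-presenting molecule with close copies, stood at 100, 147 and 155 CPM in CDAHFD advanced nuclei against 38.8 to 70.9 CPM in the 11 other libraries (difference 1.35 ± 0.27, adjusted p = 0.0049). Irf1, an interferon-induced factor, differed by 1.41 ± 0.36 (adjusted p = 0.017, or 0.0526 without FPC advanced mouse a). Of 27 NF-kB genes, Nfkb2 and Nfkbiz were positive, the latter by 1.0 ± 0.22 (adjusted p = 0.0083), against 4.5% positive among all genes tested. Nfkbiz was lower in CDAHFD than in FPC controls (-0.58, edgeR adjusted p = 0.028), with 0.42 between the advanced groups (0.057).

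Secreted hepatocyte proteins were lowered less, or raised more, under the CDAHFD in a few cases. Of 34 complement and coagulation genes, 26 fell under the FPC diet and 18 under the CDAHFD, and 3 had a positive difference (F10, Proc and Cfb). F10, clotting factor X, fell to 86.7 to 111 CPM under the FPC diet and stood at 145 to 182 CPM in CDAHFD advanced nuclei (difference 1.01 ± 0.23, adjusted p = 0.0088). Proc, protein C, differed by 0.67 ± 0.16 (adjusted p = 0.012). Of 26 acute phase genes, Orm2 and Orm3 were positive, against 4.5% positive among all genes tested. Orm2, an orosomucoid with near-identical copies, reached 10.2 to 20.2 CPM under the CDAHFD and 3.53 to 5.26 CPM under the FPC diet (difference 2.46 ± 0.64, adjusted p = 0.019, or 0.0526 without CDAHFD advanced mouse b and 0.057 with an offset for gene length). Among 14 Kupffer cell markers tested, Marco and Vsig4 were positive. Marco, a macrophage scavenger receptor, stood at 1.87, 1.33 and 1.63 CPM in CDAHFD advanced nuclei and at 0 to 0.76 CPM in the other 3 groups (difference 4.99 ± 1.33, adjusted p = 0.02, or 0.0914 without FPC control mouse a and 0.115 by limma-voom). Vsig4, a complement receptor of the same cells, differed by 2.05 ± 0.58 (adjusted p = 0.027), lost without CDAHFD advanced mouse b (0.0751) or FPC advanced mouse c (0.0655). Neither end of the Vsig4 difference was called, with 0.80 between the advanced groups (edgeR adjusted p = 0.14) and -1.25 between the controls (0.085).

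Hepatocyte regulators and zonated genes gave single differences. Rora, a nuclear receptor of metabolism and the clock, fell under the CDAHFD from 681, 944, 843 and 946 CPM to 381, 437 and 486 CPM, and stood at 910 to 1027 and 1172 to 1393 CPM in the FPC groups (difference -1.33 ± 0.23, adjusted p = 0.0019). Nr5a2, the bile acid regulator LRH-1, differed by -0.95 ± 0.21 (adjusted p = 0.0074). Glul, the glutamine synthetase of pericentral hepatocytes, fell under the FPC diet from 163 to 191 CPM to 118, 42.6 and 64.6 CPM and stood at 128 to 166 and 181 to 208 CPM in the CDAHFD groups (difference 1.59 ± 0.29, adjusted p = 0.0022). Prodh, the proline dehydrogenase, fell from 158 to 290 CPM to 29.5 to 41.4 CPM under the FPC diet and stood at 89.5 to 189 and 61.9 to 109 CPM in the CDAHFD groups (difference 2.15 ± 0.42, adjusted p = 0.004). Atp8b1, a canalicular lipid flippase, differed by -0.88 ± 0.18 (adjusted p = 0.0046).

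Several lists held no edgeR call. The 21 male-biased growth hormone targets had a median change of -3.22 under the CDAHFD and -3.10 under the FPC diet, and 15 and 16 of them fell. Hsd3b5, a male-specific steroid dehydrogenase, went from 343, 394, 613 and 794 CPM to 0.218, 0.491 and 0.551 CPM under the FPC diet and from 988, 539, 473 and 340 CPM to 0.734, 0.532 and 0.57 CPM under the CDAHFD (difference 0.45 ± 1.10, adjusted p = 0.82). None of this list was called by edgeR or limma-voom, 2 had an unadjusted p under 0.05, and DESeq2 called 2 lower. In bile acid synthesis none of 15 genes was called by edgeR, DESeq2 or limma-voom, and 2 had an unadjusted p under 0.05. Cyp7a1 and Cyp8b1, hydroxylases of that pathway, differed by 1.51 ± 0.83 (adjusted p = 0.24) and 1.07 ± 0.61 (adjusted p = 0.25). In the unfolded protein response none of 20 genes was called by the 3 tools, and 1 had an unadjusted p under 0.05. Periportal genes (21) had no edgeR call, 3 at an unadjusted p under 0.05, and 1 call each by DESeq2 and limma-voom. Immediate early and AP-1 genes (21) had no edgeR or limma-voom call, 1 at an unadjusted p under 0.05 and 1 DESeq2 call. A missing call does not show that the diets acted alike on these genes.

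**Figure D4:**
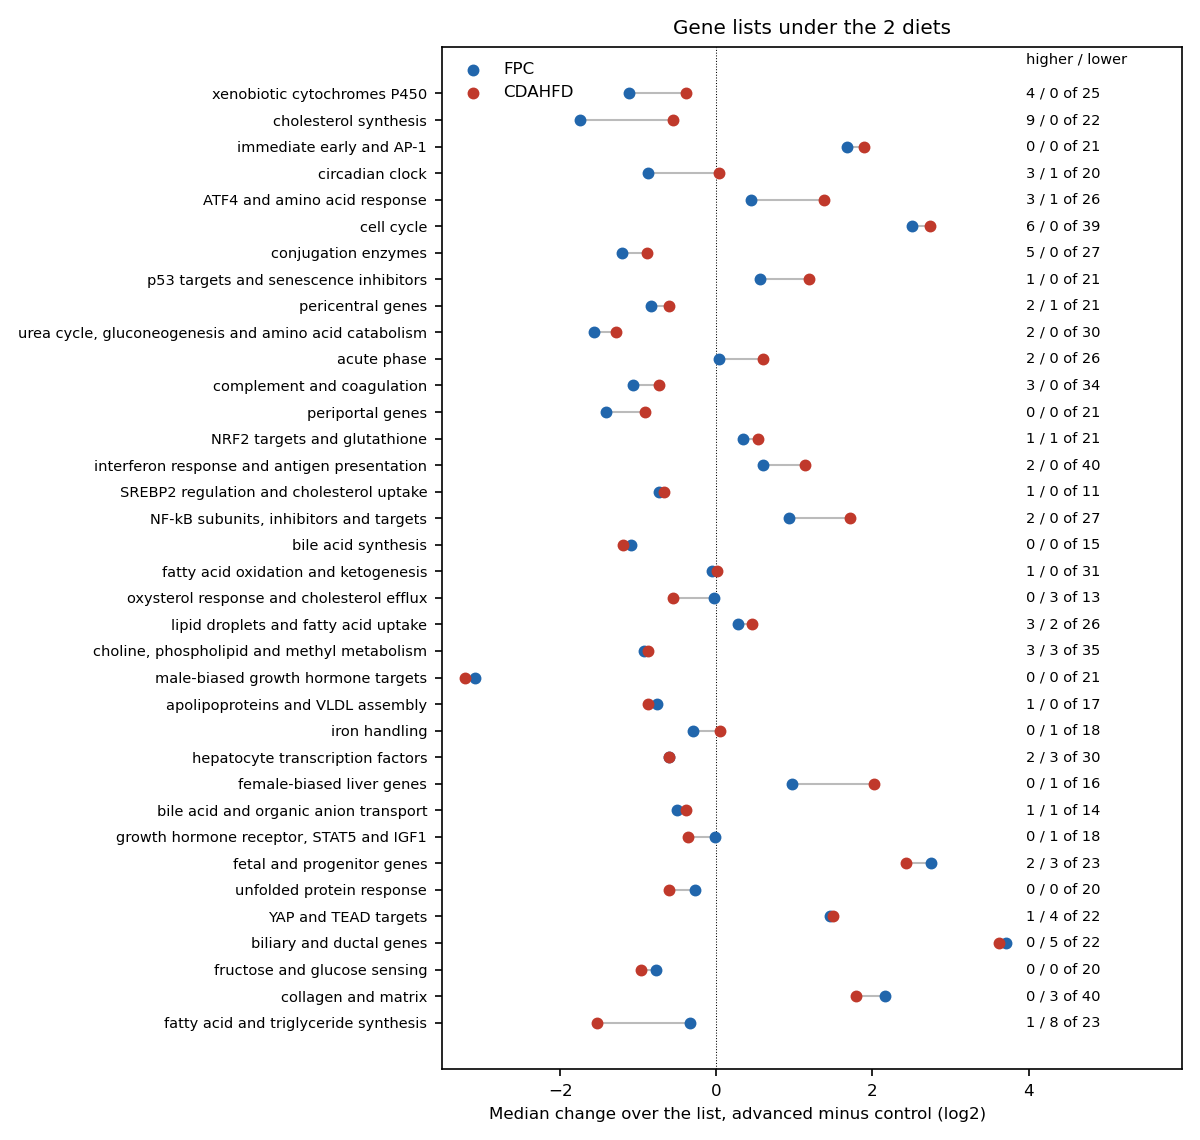
Median change from control to advanced disease (log2) over each of 36 gene lists under the FPC diet (blue) and the CDAHFD (red), ordered by the median difference, with the number of genes called higher and lower of those tested at the right. The diets lie farthest apart for cholesterol synthesis, with 9 of 22 called higher, and for fatty acid and triglyceride synthesis, with 8 of 23 called lower.

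In 101 genes both diets passed the test in opposite directions, 45 positive and 56 negative in the difference. Besides Gpc6 and Gsta4, the 5 with the smallest p in the negative direction were Zswim6, Klhl13, Fam110b, 4930452B06Rik and Tcte2. Zswim6, a zinc finger protein, rose under the FPC diet from 86 to 111 CPM to 203, 216 and 198 CPM and fell under the CDAHFD from 87.2 to 107 CPM to 72.2, 72.2 and 72.4 CPM (difference -1.52 ± 0.17, adjusted p = 5.7e-05). Klhl13, a substrate adaptor of a ubiquitin ligase, differed by -2.21 ± 0.26, Fam110b by -2.23 ± 0.28, 4930452B06Rik by -4.16 ± 0.53 and Tcte2 by -1.83 ± 0.25. In the positive direction the others were Ces2c, Baz2a, Hcls1, Gstt2 and Gphn. Ces2c, a carboxylesterase, fell under the FPC diet from 17.3 to 22.9 CPM to 4.61 to 6.49 CPM and went from 2.97 to 5.87 CPM to 3.8, 9.19 and 9.38 CPM under the CDAHFD (difference 2.61 ± 0.39, adjusted p = 0.00055). Gphn, the scaffold protein gephyrin, which also makes the molybdenum cofactor, fell from 4799 to 5941 CPM to 2809 to 3225 CPM under the FPC diet and rose from 4122 to 5012 CPM to 6753, 8107 and 7312 CPM under the CDAHFD. Its difference was 1.48 ± 0.25 (adjusted p = 0.0017). Baz2a, a chromatin remodelling subunit, differed by 1.08 ± 0.18, Gstt2 by 2.43 ± 0.40 and Hcls1, a leukocyte protein, by 2.37 ± 0.40. In 14 called genes at least 1 group held 3 counts or fewer, such as Ptges with 0 counts in CDAHFD advanced nuclei and Rtn4r with 0 in FPC controls, and no fold is given for them.

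The sign of the difference went with gene length. Of genes up to 10 kb, 6.89% had a positive and 1.12% a negative difference, whereas of genes over 300 kb 3.17% were positive and 30.8% negative. The median length was 15.2 kb for positive, 74.9 kb for negative and 22.3 kb for uncalled genes. Genes over 100 kb held 33.5 to 35.4% of the counts in CDAHFD advanced nuclei, 39.0 to 41.1% in CDAHFD controls, 39.8 to 40.8% in FPC controls and 40.6 to 43.8% in FPC advanced nuclei. In whole liver nuclei of the same advanced mice the share was 37.1 to 38.7% under the CDAHFD and 39.2 to 42.0% under the FPC diet. With an offset for gene length in each library, added after seeing the data, 496 genes were positive and 695 negative, and 1053 of the 1638 calls were shared. Cholesterol synthesis then held 9 positive genes, fatty acid synthesis 7 negative, bile duct genes 4 negative, the YAP and TEAD list 2 negative, collagen and matrix 1 negative and acute phase none. Bicc1 (235 kb), Glis3 (421 kb), Rora (734 kb) and Asap1 (296 kb, difference -1.07 ± 0.17) are long genes, and all 4 were also called with this offset.

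**Figure D5:**
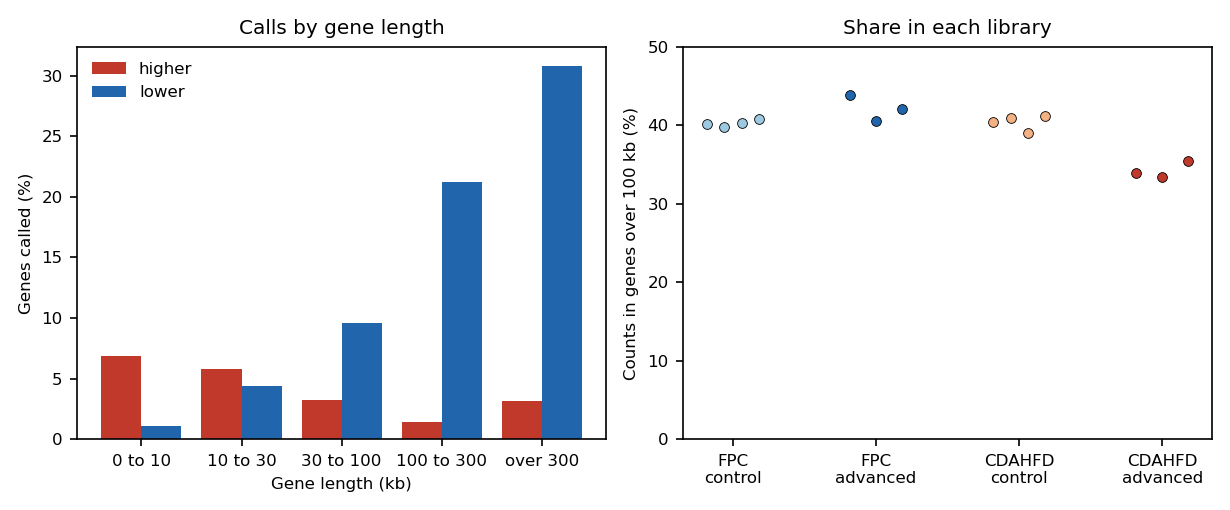
Left, share of genes called higher or lower in the diet difference by gene length (kb). Right, share of counts in genes over 100 kb in each hepatocyte library, which was 33.5 to 35.4% in the 3 CDAHFD advanced libraries and 39.0% or more in the other 11.

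In whole liver nuclei of the same 14 mice the difference was called positive for 245 of 14413 genes (1.7%) and negative for 428 (2.97%). The overlap in the same direction was 327 genes, 20.0% of the hepatocyte calls and 48.6% of the whole liver calls. The whole liver difference was -5.71 for Scd1 (adjusted p = 0.00048) and 2.74 for Msmo1 (adjusted p = 0.0024). For Igf2bp2 it was 0.23 (adjusted p = 0.73), and for Gphn 0.08 (adjusted p = 0.94). The hepatocyte and whole liver differences of the 14 mice were tested against each other in a fit of all 44 libraries, mild ones included. Without the mouse as a block they diverged for 10 of 14627 genes (0.0684%), 1 positive (0.00684%) and 9 negative (0.0615%). With the mouse as a block they diverged for 493 (3.37%), all 10 included. Without CDAHFD control mice a and b, a fit added after seeing the data, the block gave 1015 of 14740 genes (6.89%), the 10 included, and no block gave 4, all among the 10 and with Gpc6, Igf2bp2 and Lepr among them. Gpc6 (-3.22 ± 0.47, adjusted p = 0.00074), Igf2bp2 (-3.64 ± 0.61, adjusted p = 0.0048) and Lepr (-3.40 ± 0.68, adjusted p = 0.03) were among the 9 that were more negative in hepatocyte nuclei. The one that was more positive was Nalcn, a sodium leak channel chosen here after its value was seen (2.35 ± 0.48, adjusted p = 0.043). Its difference was 0.15 in hepatocyte nuclei and -2.15 in whole liver nuclei. With the mouse as a block the Nalcn adjusted p was 0.011. Without CDAHFD control mice a and b it was 0.165 with no block and 0.015 with the block.

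The same comparison in mild disease called 772 genes positive (5.59%) and 917 negative (6.64%) in hepatocyte nuclei. It shares its controls with the advanced comparison, so values are only set side by side. In mild disease the difference was -7.07 for Scd1, 3.08 for Sqle, 3.41 for Gsta4, -3.29 for Gpc6 and 4.32 for Mki67, all with an adjusted p under 0.05. It was -0.42 for Glis3 (adjusted p = 0.44) and -0.34 for Bicc1 (adjusted p = 0.58), whose differences in advanced disease were -1.71 and -1.68. For Glul it was -0.01 (adjusted p = 0.98). Whether mild and advanced disease differ in these values was not tested.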

How the data were processed

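The data are RNA of tagged hepatocyte nuclei and of whole liver nuclei from 22 mice, 44 libraries, made without poly-adenylated selection, per the labels' protocols. The authors deposited raw counts per gene for 20105 RefSeq identifiers, and a table of log2 fold changes and adjusted p-values per the file headers, used here only for symbols, positions and lengths. The submitters' processing notes name the build mm10 and the tools STAR (2.4.2a) and DESeq2 (1.24.0); the counting tool and its strand setting are not given in the sources used here. For 94.7% of the listed genes the counted length was the whole gene length, so introns appear to have been counted. As strand is also unknown, reads of overlapping genes cannot be assigned with certainty.

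The 22 hepatocyte libraries of 6 groups were fitted together in edgeR 4.0.16 (R 4.3.3, limma 3.58.1) with TMM scaling, the default expression filter and robust quasi-likelihood; the difference is 1 contrast. Mild libraries entered the fit for the estimate of spread. The whole liver difference came from a like fit of all whole liver libraries. The test between the fractions came from a fit of all 44 libraries. Standard errors are the absolute log2 value over the square root of F. The 14 libraries held 12.1 to 30.6 M counts, and replicate libraries, which the labels give as separate mice, differed far more than counting error (ratio of chi-square to its degrees of freedom 25.3 to 290), so the spread between mice sets the precision. Alternatives were RLE and upper-quartile scaling, DESeq2 1.42.0, limma-voom, no filter, a stricter filter, the 14 libraries alone, each library left out and gene-length offsets. The 2 fractions of a mouse are paired by the labels' mouse numbers; over 11390 genes 12 of 14 mice correlated best with their own partner, above 0.1, and CDAHFD control mice a and b with each other's. Code was tested on simulated data.

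The comparison and all 45 gene lists were chosen with earlier results of these data known. Of 940 list genes 935 had an identifier. Genes were named by rule: the 12 largest called differences each way with at least 1 CPM in a group, the 3 called genes of smallest p in each list, a fixed set, and the 6 of smallest p each way with opposite changes. This gave 142 genes, of which the text describes 83, mostly those whose call does not rest on 1 library. Some genes of these lists are not reported here. Promoters are RefSeq windows of GRCm38.p6.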

Additional observations from a re-analysis of the deposited data

Results flagged for a closer look

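Of the 101 genes that the 2 diets moved in opposite directions, the 6 of smallest p each way are given here, each change past the test and the difference itself tested in edgeR. The difference was 2.84 for Gsta4, 2.61 for Ces2c, 2.43 for Gstt2, 2.37 for Hcls1, 1.48 for Gphn and 1.08 for Baz2a. It was -4.55 for Gpc6, -4.16 for 4930452B06Rik, -2.23 for Fam110b, -2.21 for Klhl13, -1.83 for Tcte2 and -1.52 for Zswim6. Gsta4, Ces2c and Hcls1 overlapped between the advanced groups and were lower in CDAHFD controls, while Gpc6, Zswim6 and Klhl13 did not overlap between the advanced groups.

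Among 166 groups of 4 control mice, 2 for each gene described, a single mouse stood apart from the other 3 in 8. Chance flags about 1 in 20, or 8.3 of 166. FPC control mouse a was low in Abcg5 (266 CPM, others 338 to 350) and in Abcg8, which overlaps it (93.5 CPM, others 121 to 122). FPC control mouse b was high in Bgn (2.30 CPM, others 1.25 to 1.29) and low in F10 (209 CPM, others 236 to 241). CDAHFD control mouse a was high in Cd36 (6.37 CPM, others 2.25 to 2.64) and Cidec (1.0 CPM, others 0.155 to 0.27). CDAHFD control mouse c was high in Spp1 (3.12 CPM, others 1.44 to 1.47), and mouse d in Klhl13 (16.4 CPM, others 12.3 to 12.7).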

How the results depend on the processing

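No paired analysis was possible because the 4 groups of the hepatocyte comparison share no mice. The 622 positive and 1016 negative genes became 954 and 1392 with DESeq2 and 607 and 522 with the 14 libraries alone, which raised the positive share of calls from 38.0% to 53.8%. Leaving out 1 library gave 337 to 833 positive and 589 to 1212 negative genes. The lowest were without CDAHFD advanced mouse b (337 and 613), FPC advanced mouse a (338 and 589) and FPC advanced mouse c (376 and 731), and 676 genes were called in all 14 of these fits. The positive count of cholesterol synthesis and the negative counts of fatty acid synthesis and bile duct genes stayed within 1.5 times in every alternative run. The 1 positive fatty acid synthesis gene became 0 with the 14 libraries alone or limma-voom and 2 with DESeq2, and DESeq2 called 1 bile duct gene positive. Between hepatocyte and whole liver differences, 1 positive and 9 negative genes became 197 and 296 with the mouse as replicate block and 11 and 20 with DESeq2. With 2 CDAHFD controls omitted for their pairing they became 376 and 639 with the replicate block and 0 and 4 without it. They ranged over 0 to 2 and 2 to 12 with 1 library left out. Of 67 called genes described, 58 were called in every alternative and all 67 kept their direction. These genes were mostly chosen because their call does not rest on 1 library. That share therefore does not describe the 1638 calls, of which 676 were kept without each of the 14 libraries. Among genes not called, Pemt turned to 0.10 with gene-length offsets, 0.070 with limma-voom and between -0.34 and 0.089 with 1 library left out, and Gnmt to -0.022 with gene-length offsets. With 3 advanced mice per diet, uncalled differences are not shown to be absent.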
